A study of Mus musculus with 4 samples.

Results

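The transcripts of 45 genes of DNA replication and S phase were followed in hair follicle stem cells of mice fed a normal or a high-fat diet. The genes were chosen by name for their roles in origin licensing, the replicative helicase, the polymerases and other fork proteins, nucleotide supply, G1/S control and the replication of chromatin. All 45 symbols were found once among the 55401 genes of the deposited table, and all 45 passed the filter on low counts, which kept 14479 genes. The cells came from C57BL/6 mice in anagen, when follicles grow hair. The 2 groups were mice on normal diet (ND), with 2 libraries, and mice given a high fat diet (HFD) for 4 months, also with 2 libraries. The labels name no other agent, allele or transgene, and they give no age, sex, method of cell isolation or number of mice per library. P-values therefore set the difference between the diets against the spread between libraries of the same diet, a spread that may be technical.

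A cell copies its genome once per division. In G1 the origin recognition complex, CDC6 and CDT1 load rings of MCM proteins onto DNA, a step called licensing, and geminin blocks CDT1 afterwards. Cyclin-dependent kinases and the E2F transcription factors then drive entry into S phase, when CDC45 and GINS join the MCM ring to form the active helicase and the polymerases follow it. Bulge stem cells of the follicle divide rarely, mostly around the onset of anagen, while the matrix cells that build the hair shaft divide rapidly. Transcripts of most replication genes are therefore read as a sign of cells in or near S phase.

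Promoter sequences showed what these genes share outside their expression. RefSeq promoter windows on GRCm38.p6, each 300 bases from 250 before to 50 after an annotated start site, were matched by symbol for 37 of the 45 genes, with 45 windows in all. No window was found under the symbols Ccna2, Ccne2, Gins1, Gins2, Gmnn, Mcm4, Pole and Rfc2. The windows were searched on both strands for 4 forms of the E2F motif, TTTCCCGC, TTTCGCGC, TTTGCCGC and TTTGGCGC, and forms that overlapped each other were all counted. An E2F form was present in 17 of the 45 windows (37.8%), from 17 genes, against 2.26% of all 32851 windows in the RefSeq table. The windows of the replication genes were richer in G and C (median 60.0% against 52.7%). Among all windows with a GC content between 54.0% and 65.7%, the middle range of the replication genes, the share was 3.61%. The CCAAT box was found in 57.8% of the windows, in 37.4% of all windows and in 37.6% of those with a GC content in that range. The cell cycle homology element TTTGAA, known from G2/M genes, was found in 13.3% of the windows, which lies under the 17.9% of all windows and over the 10.4% of those in that GC range. In 27 windows of 26 G2/M genes TTTGAA was found in 74.1% and an E2F form in 3.7%. A match describes the letters of the window and is not evidence of a bound site.

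Windows of 8 genes are shown with E2F forms in capitals, 5′ to 3′ in the direction of the gene. They are 4 MCM genes whose E2F forms come in pairs or triples, Pold1 and Dut, which were called lower with the high-fat diet, and Cdc6 and Orc1, whose expression did not separate the diets. For Mcm7 the window of the upstream start site is given.
Mcm3, chr1:20820263-20820562, minus strand: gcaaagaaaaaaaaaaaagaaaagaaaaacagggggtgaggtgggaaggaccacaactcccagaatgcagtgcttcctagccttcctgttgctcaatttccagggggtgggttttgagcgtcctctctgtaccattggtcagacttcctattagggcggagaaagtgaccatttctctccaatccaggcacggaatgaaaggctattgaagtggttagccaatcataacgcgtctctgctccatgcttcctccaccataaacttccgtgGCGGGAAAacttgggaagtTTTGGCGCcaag
Mcm5, chr8:75109259-75109558, plus strand: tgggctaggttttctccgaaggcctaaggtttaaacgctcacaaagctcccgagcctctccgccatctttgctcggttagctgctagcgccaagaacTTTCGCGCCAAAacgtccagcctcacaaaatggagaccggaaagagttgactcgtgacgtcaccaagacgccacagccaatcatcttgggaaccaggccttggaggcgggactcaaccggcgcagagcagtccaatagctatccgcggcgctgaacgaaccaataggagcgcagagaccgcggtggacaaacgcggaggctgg
Mcm6, chr1:128359656-128359955, minus strand: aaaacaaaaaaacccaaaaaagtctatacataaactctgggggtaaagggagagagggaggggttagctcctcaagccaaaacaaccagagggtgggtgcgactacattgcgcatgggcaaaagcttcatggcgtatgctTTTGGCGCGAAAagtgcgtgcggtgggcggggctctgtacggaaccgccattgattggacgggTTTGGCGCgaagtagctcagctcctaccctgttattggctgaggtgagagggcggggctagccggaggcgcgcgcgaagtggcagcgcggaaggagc
Mcm7, chr5:138171834-138172133, minus strand: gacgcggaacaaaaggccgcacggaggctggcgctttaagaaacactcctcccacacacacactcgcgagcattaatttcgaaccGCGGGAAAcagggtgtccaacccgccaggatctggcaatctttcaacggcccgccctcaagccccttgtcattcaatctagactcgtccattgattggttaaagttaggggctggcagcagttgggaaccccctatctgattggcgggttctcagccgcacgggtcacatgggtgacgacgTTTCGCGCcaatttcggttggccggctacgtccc
Pold1, chr7:44548766-44549065, minus strand: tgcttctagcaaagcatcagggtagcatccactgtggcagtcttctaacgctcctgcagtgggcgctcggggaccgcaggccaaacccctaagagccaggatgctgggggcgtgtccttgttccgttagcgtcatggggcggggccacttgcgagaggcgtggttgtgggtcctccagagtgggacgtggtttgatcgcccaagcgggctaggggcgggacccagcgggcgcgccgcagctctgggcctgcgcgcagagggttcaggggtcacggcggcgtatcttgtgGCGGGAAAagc
Dut, chr2:125247265-125247564, plus strand: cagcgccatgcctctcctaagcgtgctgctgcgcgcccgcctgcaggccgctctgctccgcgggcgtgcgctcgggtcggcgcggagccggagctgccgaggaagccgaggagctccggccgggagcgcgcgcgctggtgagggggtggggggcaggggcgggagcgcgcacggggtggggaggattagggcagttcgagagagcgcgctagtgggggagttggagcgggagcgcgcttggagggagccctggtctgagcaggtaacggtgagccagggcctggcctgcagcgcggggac
Cdc6, chr11:98907901-98908200, plus strand: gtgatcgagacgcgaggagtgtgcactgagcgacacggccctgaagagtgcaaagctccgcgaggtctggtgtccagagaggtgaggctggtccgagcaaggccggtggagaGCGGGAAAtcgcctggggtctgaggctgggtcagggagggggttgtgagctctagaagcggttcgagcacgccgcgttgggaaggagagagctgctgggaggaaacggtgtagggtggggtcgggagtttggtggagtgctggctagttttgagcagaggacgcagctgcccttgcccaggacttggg
Orc1, chr4:108579204-108579503, plus strand: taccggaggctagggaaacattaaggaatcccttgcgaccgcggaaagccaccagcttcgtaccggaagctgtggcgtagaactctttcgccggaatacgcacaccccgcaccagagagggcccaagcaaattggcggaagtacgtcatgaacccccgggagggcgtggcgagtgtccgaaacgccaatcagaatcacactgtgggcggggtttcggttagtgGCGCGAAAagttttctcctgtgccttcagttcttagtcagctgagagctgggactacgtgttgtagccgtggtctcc
In Mcm5 a TTTCGCGC on the plus strand and a TTTGGCGC on the minus strand overlapped, from 153 to 142 bases before the start site. Mcm6 held a similar overlapping pair and a further TTTGGCGC nearer the start. None of the 4 forms lay in the window of Dut. For 4 genes, Dut, Cdc6, E2f1 and Mcm7, every window began inside the gene as the deposited table places it, so the bases before the gene's first start were not searched.

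The counts summed to between 8590570 and 9940848 per library, and the limit of 3 counts used for detection was 0.291 to 0.358 CPM (library-scaled counts, after TMM). The 12 bulge stem cell markers were all detected. The defining marker Cd34 was at 80.9 and 73.4 CPM under the normal diet against 69.7 and 64.8 CPM (log2 fold change -0.20; edgeR adjusted p = 0.634), and Krt15 had at least 20547 counts in every library. Markers of fibroblasts, immune cells, melanocytes and endothelial cells each summed to under 100 CPM in every library, with a highest sum of 81.2 CPM for the 8 fibroblast markers. Fibroblast markers summed to 45.2 and 57.4 CPM with the normal diet against 81.2 and 65.8 CPM. Immune markers summed to 17.0 and 42.6 CPM against 47.7 and 55.5 CPM, and endothelial markers to 9.78 and 14.7 CPM against 17.7 and 23.0 CPM. Melanocyte markers overlapped. The 7 sebaceous gland markers summed to 601 and 530 CPM against 501 and 510 CPM. Scd1 and Fasn gave most of it, and Pparg, Awat1 and Mc5r had at most 18, 4 and 6 counts in a library. Twist2 of fibroblasts and Itgam of immune cells had 0 counts in all libraries. Over all 14479 genes tested, 33 (0.228%) were lower and 162 (1.12%) higher with the high-fat diet, 195 (1.35%) in all, by edgeR's quasi-likelihood test at an adjusted p under 0.05. Of the calls 83.1% were higher, against 67.0% with scaling by total count and 96.7% with scaling to equal sums of TPM. DESeq2 called 119 lower and 275 higher genes, and limma on log2(FPKM + 1) called 0 lower and 2 higher genes, with 2078 at an unadjusted p under 0.05. With 1 library left out, between 0 and 2 genes were lower and between 0 and 81 higher.

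The replication genes were expressed at moderate to high levels. Per kilobase of exonic length, in FPKM (counts per kilobase and library total), they ranged from a mean of 3.0 for E2f2 to 71.9 for Mcm6, with a median of 12.02. The median of the genes stood at percentile 75.3 of all genes tested by FPKM. The most abundant after Mcm6 were Uhrf1, at a mean of 70.4 FPKM, and Mcm4, at 57.2 FPKM. Every gene had at least 75 counts in every library. Of the 45 genes 16 overlap another gene with at least 10 counts, among them Chaf1a, Ccne2, Gins2, Orc6 and Rfc4, and their values are uncertain as far as reads were shared.

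**Figure D1:**
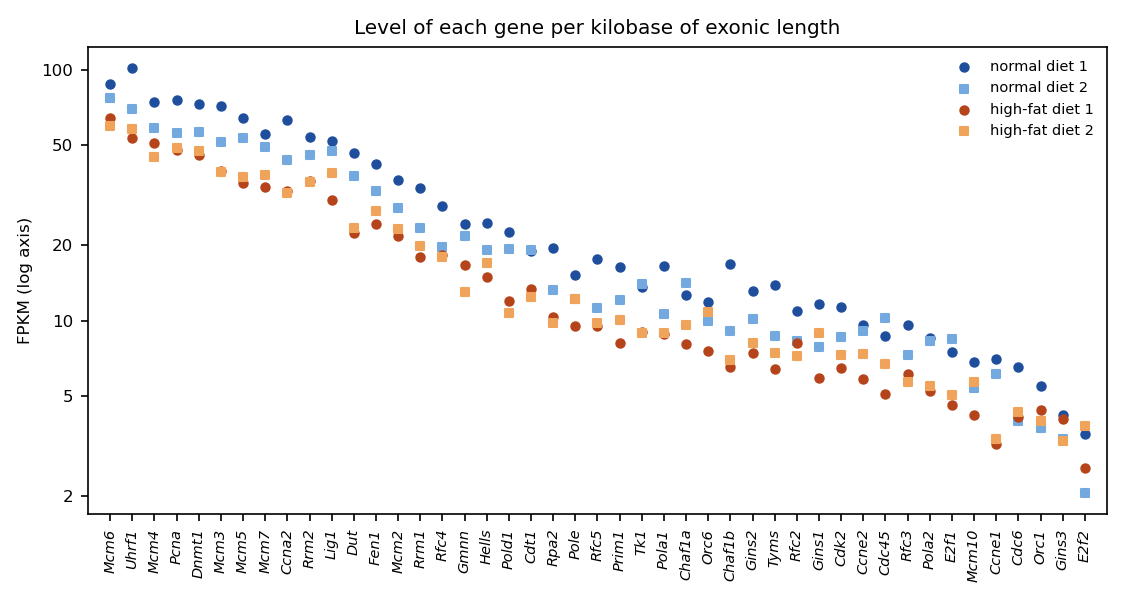
Level of each of the 45 genes in FPKM (log axis), in order of the mean over 4 libraries, with a symbol per library. The genes span from a mean of 3.0 FPKM for E2f2 to 71.9 FPKM for Mcm6. By CPM, which is not plotted here, the first normal diet library is highest for 38 genes, against 28.5% of all genes tested. By FPKM it is highest for Gins3 as well.

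With the high-fat diet these transcripts were lower as a group, by amounts that for nearly all single genes did not pass the test. Pold1, the catalytic subunit of DNA polymerase delta, and Dut, the dUTPase that keeps uracil out of DNA, fell and were the only 2 genes called of 45 (4.44%, against 0.228% of all genes tested), and 0 were called higher (against 1.12%). The other 43 had edgeR adjusted p between 0.0508 for Mcm5 and 0.98 for Gins3. Log2 fold changes were negative for 43 of 45 genes, against 49.9% of all genes tested, with a median of -0.45 against 0.00181 for all genes tested. An unadjusted p under 0.05 with a lower value was reached by 33 genes (73.3%), against 6.03% of all genes tested, and with a higher value by 0, against 7.24%. For 36 genes both high-fat diet values lay under both normal diet values, a pattern of 21.9% of all genes tested. For 9 genes the diets overlapped, and for 0 did both high-fat diet values lie above (22.7% of all genes tested). DESeq2 called 6 of the genes lower, Mcm3, Mcm5, Pold1, Dut, Ccna2 and Uhrf1, against 0.822% of all genes tested. The genes share the same 4 libraries and move together between them, so these counts are not independent observations.

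The group was uneven between the 2 normal diet libraries as well. Summed over the 45 genes, expression was 5718 and 4564 CPM with the normal diet and 3658 and 3815 CPM with the high-fat diet. The means were 5141 ± 816 and 3737 ± 111 CPM (SD, n = 2), so the difference of the means exceeded the SDs, and the second normal diet library lay nearer to the high-fat diet libraries than to the first. The first normal diet library was above the second for 40 of 45 genes (against 49.8% of all genes tested), with a median log2 ratio of 0.34. The ratio of the second normal diet library to the first high-fat diet library had a median of 0.30 and that to the second 0.23. The high-fat diet libraries differed from each other by a median of -0.06. The mean of the high-fat diet libraries lay below the second normal diet library for 41 genes, against 48.8% of all genes tested. In 31 genes the order was first normal diet, second normal diet, then both high-fat diet libraries, and in 5 genes the second normal diet library came first. For 29 genes the normal diet libraries stood further apart than the second of them stood from the high-fat diet mean.

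**Figure D2:**
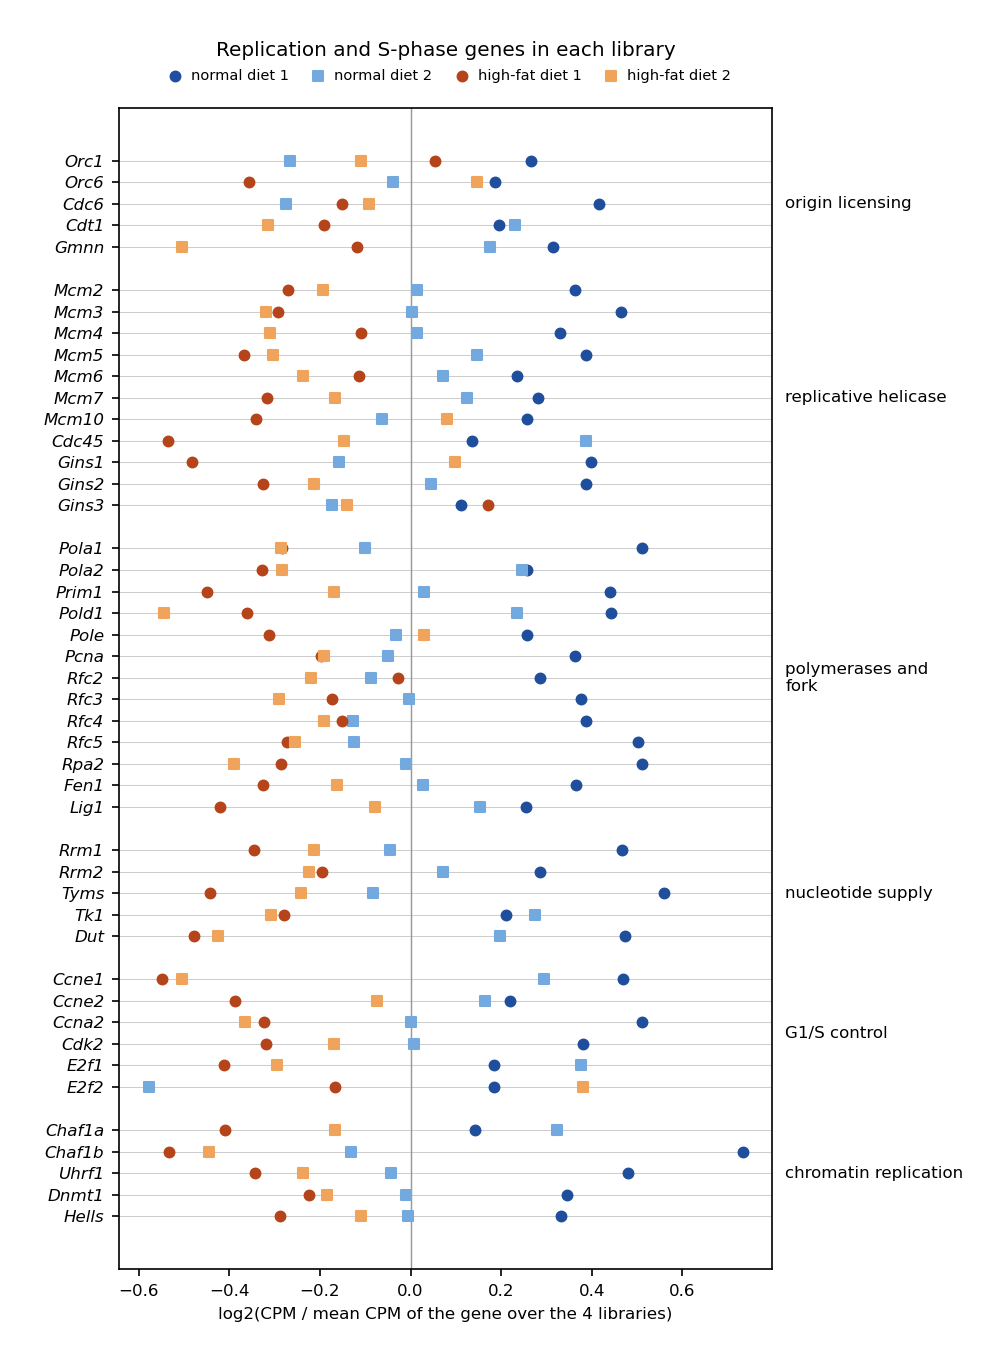
Each gene's CPM in the 4 libraries relative to its own mean (x axis, log2), grouped by role, with a symbol per library. The first normal diet library is highest in 38 of 45 genes, against 28.5% of all genes tested. Both high-fat diet values lie under both normal diet values in 36, against 21.9% of all genes tested.

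Leaving out libraries showed how far the group rests on the first normal diet library. Without it the median log2 fold change was -0.25 in place of -0.45, and 41 of 45 genes stayed negative (48.5% of all genes tested). When the second was removed in its place, the median was -0.56 and all 45 were negative (48.9% of all genes tested). On removing either high-fat diet library the medians were -0.41 and -0.52, with 43 negative each time (50.5% of all genes tested both times). Each of these 4 fits leaves 1 library in a diet, so calls of single genes are not read from them.

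**Figure D3:**
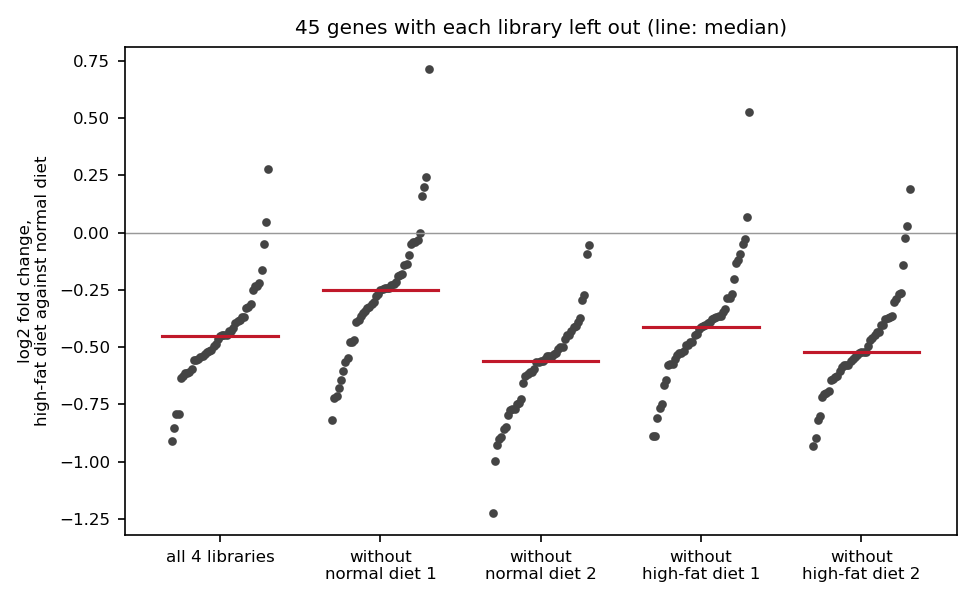
Log2 fold change (y axis, high-fat diet against normal diet) of the 45 genes, in ascending order within each column, from all 4 libraries and with each library left out in turn. The red line is the median, which is -0.45 with all libraries and moves to -0.25 without the first normal diet library.

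The licensing genes had the smallest median difference of the 6 roles, -0.23 over 5 genes. Of the 5, 0 were called by edgeR, against 1.35% of all genes tested. An unadjusted p under 0.05 with a lower value was reached by 2, against 6.03% of all genes tested. Cdt1, the loading factor for the MCM ring, stood at 57.1 and 58.5 CPM with the normal diet and at 43.7 and 40.1 CPM with the high-fat diet. Its normal diet libraries were close and the diets did not overlap (log2 fold change -0.46, SE 0.16; edgeR adjusted p = 0.241). Gmnn, which encodes geminin, the inhibitor of CDT1, was at 34.3 and 31.1 CPM against 25.4 and 19.4 CPM, also without overlap (edgeR adjusted p = 0.313). Cdc6, the ATPase that works with CDT1, was at 33.0 and 20.5 CPM with the normal diet and at 22.3 and 23.3 CPM with the high-fat diet. Both high-fat diet values of Cdc6 thus lay between those of the normal diet, and the log2 fold change moved from -0.23 to 0.16 when the first normal diet library was removed. Orc1, the largest subunit of the origin recognition complex, and Orc6, its smallest, overlapped between the diets, with log2 fold changes of -0.051 and -0.16 (SE 0.29 and 0.24). Orc2, Orc3, Orc4 and Orc5, subunits that are not among the 45 genes, had log2 fold changes between -0.37 for Orc2 and -0.068 for Orc3, and did not pass either.

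All 6 subunits of the MCM ring were lower with the high-fat diet without overlap, a pattern of 21.9% of all genes tested. Each had an unadjusted p under 0.05, against 6.03% of all genes tested with a lower value. The subunits moved together between the libraries, so these are not 6 independent observations. Of the 6, 0 passed edgeR's test after adjustment, against 1.35% of all genes tested. Mcm5 came nearest, at 247 and 209 CPM with the normal diet and 146 and 153 CPM with the high-fat diet. The difference was -0.61 on the log2 scale (SE 0.13; edgeR adjusted p = 0.0508). Mcm5 was called in 7 of 13 other fits that used all 4 libraries, with adjusted p between 0.00132 and 0.182. Mcm3 was at 259 and 188 CPM against 154 and 151 CPM, and Mcm7 at 236 and 212 CPM against 156 and 173 CPM. Mcm6, the most abundant of the ring, was at 393 and 351 CPM against 309 and 284 CPM, the smallest difference of the 6 (log2 fold change -0.33, SE 0.12). Mcm4 was at 257 and 206 CPM against 189 and 165 CPM, and Mcm2 had a log2 fold change of -0.43 (SE 0.14). Together the subunits had 389 and 318 FPKM with the normal diet and 245 and 242 FPKM with the high-fat diet. The ring holds equal numbers of each subunit, while their transcripts ranged over 2.63-fold, from a mean of 27.3 FPKM for Mcm2 to 71.9 FPKM for Mcm6.

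The other helicase genes were lower in level and less uniform. Cdc45 and Gins2, parts of the active helicase, had log2 fold changes of -0.59 and -0.50 (SE 0.23 and 0.19) without overlap and without passing. Gins1 and Mcm10, a factor that activates the helicase, overlapped, with log2 fold changes of -0.31 and -0.22 (SE 0.33 and 0.20). Gins3 was at 10.9 and 8.98 CPM with the normal diet and 11.4 and 9.18 CPM with the high-fat diet, a log2 fold change of 0.046 (SE 0.33). Its sign was negative with limma on FPKM and under scaling by total count and to equal sums of TPM.

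Among the 13 polymerase and fork genes all had negative log2 fold changes, between -0.79 for Pold1 and -0.23 for Rfc2, against 49.9% of all genes tested. For 11 of them both high-fat diet values lay under both normal diet values, against 21.9% of all genes tested. Pold1 (chromosome 7, positions 44532746 to 44548849, minus strand, GRCm38) was at 105 and 91.2 CPM with the normal diet and 60.4 and 53.2 CPM with the high-fat diet. Both normal diet libraries of Pold1 were well above both high-fat diet libraries. It fell to 0.58 of its normal diet level, or by -0.79 on the log2 scale (SE 0.15; edgeR adjusted p = 0.0332). Pold1 was called in 10 of the 13 other fits on all 4 libraries, not by limma on either pseudocount or with equal sums of TPM. With a library left out its log2 fold change lay between -0.89 and -0.68, in fits that cannot show whether the call holds. Pold2, the second subunit of the same polymerase, which is not among the 45 genes, was at 63.4 and 48.2 CPM against 30.02 and 32.0 CPM and did not pass (edgeR adjusted p = 0.0569).

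The genes of polymerase alpha and primase, which begin each new strand, were lower together without passing. Pola2 was at 67.8 and 67.3 CPM with the normal diet and 45.2 and 46.6 CPM with the high-fat diet. The 2 libraries of each diet were nearly equal for Pola2 (log2 fold change -0.56, SE 0.16; edgeR adjusted p = 0.131). Pola1 and Prim1 had log2 fold changes of -0.52 and -0.55 (SE 0.19 and 0.20). Pole, the catalytic subunit of the leading strand polymerase epsilon, overlapped between the diets, at 163 and 133 CPM against 110 and 139 CPM. It had a log2 fold change of -0.25 (SE 0.16).

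Lig1, the ligase that joins Okazaki fragments, was at 213 and 198 CPM with the normal diet and 133 and 169 CPM with the high-fat diet. Fen1, the nuclease that trims the same fragments, had a log2 fold change of -0.45 (SE 0.16). Neither passed, with edgeR adjusted p of 0.197 for Lig1 and 0.253 for Fen1. Pcna, the sliding clamp, was at a log2 fold change of -0.37 (SE 0.15), and the clamp loader genes Rfc2, Rfc3, Rfc4 and Rfc5 between -0.49 for Rfc5 and -0.23 for Rfc2. Pcna has a near-identical copy in the table, Pcna-ps2, with between 60 and 141 counts per library, so reads shared between them leave the value of Pcna uncertain. Rpa2, a subunit of the protein that coats single strands, had a log2 fold change of -0.61 (SE 0.21; edgeR adjusted p = 0.23).

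**Figure D4:**
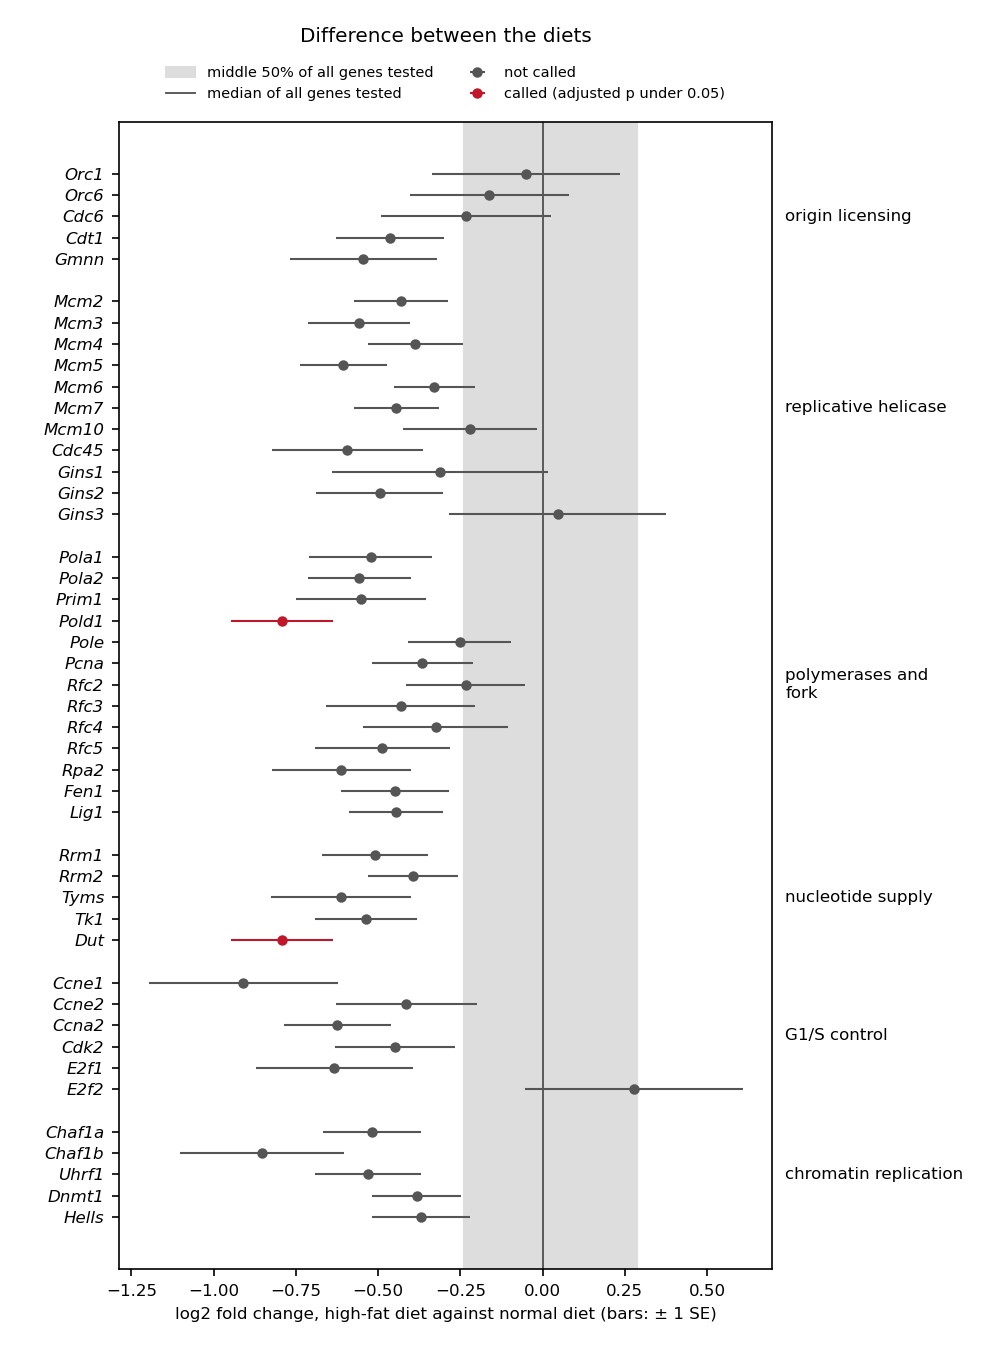
Log2 fold change of each gene, high-fat diet against normal diet (x axis, bars are ± 1 SE), by role. The shaded band is the middle 50% of all genes tested and the red points are the called genes Pold1 and Dut, while Gins3 and E2f2 are the 2 genes with positive values.

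All 5 genes of nucleotide supply were lower without overlap, a pattern of 21.9% of all genes tested. Each had an unadjusted p under 0.05, against 6.03% of all genes tested with a lower value. Their median log2 fold change of -0.54 was as low as that of the G1/S genes. Dut (chromosome 2, positions 125247190 to 125258608, plus strand, GRCm38) was at 108 and 89.1 CPM with the normal diet and at 55.8 and 57.8 CPM with the high-fat diet. The high-fat diet libraries of Dut were close to each other and well below both normal diet libraries. It fell to 0.58 of its normal diet level, or by -0.79 on the log2 scale (SE 0.16; edgeR adjusted p = 0.0332). Like Pold1 it was called in 10 of 13 other fits on all libraries. Its log2 fold change in the 4 fits with a library left out lay between -0.93 and -0.64.

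Tk1, the thymidine kinase of the salvage pathway, was at 68.0 and 71.1 CPM with the normal diet and 48.4 and 47.5 CPM with the high-fat diet, with little spread within a diet. Its log2 fold change of -0.54 (SE 0.16) did not pass (edgeR adjusted p = 0.143). Rrm1, the large subunit of ribonucleotide reductase, which makes deoxyribonucleotides, was at 358 and 251 CPM against 204 and 224 CPM. Its partner Rrm2 and the thymidylate synthase gene Tyms had log2 fold changes of -0.39 and -0.61 (SE 0.14 and 0.21). For Tyms the value was -0.25 on removing the first normal diet library and -0.90 on removing the second.

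Of the 6 genes of G1/S control 5 were lower without overlap (against 21.9% of all genes tested) and E2f2 was not. EdgeR called 0 of the 6, against 1.35% of all genes tested. An unadjusted p under 0.05 with a lower value was reached by 4, against 6.03% of all genes tested. Ccne1, which encodes cyclin E1, the partner of CDK2 at S phase entry, had the most negative log2 fold change of the 45 genes. It stood at 18.0 and 15.97 CPM with the normal diet and 8.90 and 9.18 CPM with the high-fat diet. On these few counts it did not pass (log2 fold change -0.91, SE 0.29; edgeR adjusted p = 0.19). Ccna2, which encodes cyclin A2 of S phase and G2, was at 247 and 174 CPM against 139 and 135 CPM (log2 fold change -0.62, SE 0.16; edgeR adjusted p = 0.101). Its normal diet libraries were far apart, and the value was -0.34 when the first of them was removed. E2f1, a transcription factor of S phase genes, was at 22.8 and 25.996 CPM against 15.1 and 16.3 CPM and did not pass either. Cdk2 and Ccne2, the gene of cyclin E2, had log2 fold changes of -0.45 and -0.41 (SE 0.18 and 0.21). E2f2 was at 16.7 and 9.81 CPM with the normal diet and 13.1 and 19.1 CPM with the high-fat diet, with no separation of the diets (log2 fold change 0.28, SE 0.33). The sign for E2f2 turned on removing the second library of the normal diet (-0.055) or of the high-fat diet (-0.022).

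The 5 genes that restore chromatin behind the fork were all lower without overlap (against 21.9% of all genes tested), with a median of -0.52. EdgeR called 0 of them, against 1.35% of all genes tested. All 5 had an unadjusted p under 0.05, against 6.03% of all genes tested with a lower value. Chaf1a, the large subunit of the histone chaperone CAF-1, was at 108 and 123 CPM with the normal diet and 73.8 and 87.3 CPM with the high-fat diet. The second normal diet library was the higher for Chaf1a, unlike most of the genes (log2 fold change -0.52, SE 0.15; edgeR adjusted p = 0.139). Chaf1b, another subunit of CAF-1, was at 75.8 and 41.7 CPM against 31.6 and 33.5 CPM. Its log2 fold change of -0.85 (SE 0.25; edgeR adjusted p = 0.15) rested on the first normal diet library and was -0.35 in its absence. Uhrf1, which guides methylation to new DNA, was at 415 and 289 CPM against 235 and 253 CPM, and was at -0.53 on the log2 scale, or -0.24 on removing the first normal diet library. Dnmt1, the maintenance methyltransferase, and Hells, a chromatin remodeller, had log2 fold changes of -0.38 and -0.37 (SE 0.14 and 0.15).

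Genes of the same pathway outside the 45 also mostly had negative log2 fold changes. Of 36 other origin and fork genes edgeR called 1 lower and 0 higher, against 0.228% and 1.12% of all genes tested. Negative log2 fold changes were found for 34 (against 49.9% of all genes tested), and the median was -0.31. The gene called was Atad5, which unloads PCNA, and it fell from 86.3 and 89.3 CPM to 51.4 and 55.9 CPM (log2 fold change -0.71, SE 0.15; edgeR adjusted p = 0.0435). Atad5 was called in 9 of 13 other fits on all libraries. Its log2 fold change lay between -0.77 and -0.65 with a library left out. Pold2 and the helicase gene Recql4 followed by p, with log2 fold changes of -0.85 and -0.88 that did not pass. Of 12 other genes of nucleotide metabolism 0 were called by edgeR, against 1.35% of all genes tested. An unadjusted p under 0.05 was reached by 0, against 6.03% lower and 7.24% higher of all genes tested. Of the 12, 11 were negative, with a median of -0.29. Nme1, a nucleoside diphosphate kinase, and the thymidylate kinase gene Dtymk had log2 fold changes of -0.48 and -0.39 (edgeR adjusted p = 0.379 and 0.384).

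Of 19 other cyclins, kinases, pocket proteins and E2F genes of G1/S, 0 were called by edgeR (against 1.35% of all genes tested) and 16 were negative. At an unadjusted p under 0.05, 8 were lower and 1 higher, against 6.03% and 7.24% of all genes tested. The D-type cyclins Ccnd1 and Ccnd2 had opposite signs. Ccnd1, the gene of cyclin D1, was at 354 and 237 CPM with the normal diet and 161 and 199 CPM with the high-fat diet (log2 fold change -0.71, SE 0.18; edgeR adjusted p = 0.0931). Ccnd2, the gene of cyclin D2, was at 191 and 214 CPM against 297 and 297 CPM (log2 fold change 0.55, SE 0.12; edgeR adjusted p = 0.0517). Both genes separated the diets without overlap and neither passed. E2f7, an E2F that represses its targets, had a log2 fold change of -0.91 (SE 0.24; edgeR adjusted p = 0.106). Among 7 genes of CDK inhibitors, 5 were tested and 0 called by edgeR (against 1.35% of all genes tested). At an unadjusted p under 0.05, 1 was lower and 2 higher, against the same 6.03% and 7.24%. Cdkn1a, the gene of p21, was at 19.9 and 25.6 CPM against 35.96 and 41.0 CPM, a log2 fold change of 0.76 (SE 0.22; edgeR adjusted p = 0.131). Cdkn2c, the gene of p18, and Cdkn2b, the gene of p15, had log2 fold changes of -0.70 and 1.46 (SE 0.22 and 0.56; edgeR adjusted p = 0.189 and 0.278), and Cdkn2a had 0 counts in 3 libraries and at most 2 in the first high-fat diet library.

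The replication genes were set beside 30 G2/M genes, whose products act after S phase. All 30 had negative log2 fold changes (against 49.9% of all genes tested), with a median of -0.48. Of the 30, 1 was called lower, against 0.228% of all genes tested. Cdc20, which activates the anaphase-promoting complex, fell from 116 and 95.4 CPM to 63.7 and 56.5 CPM (log2 fold change -0.81, SE 0.16; edgeR adjusted p = 0.0328). With a library left out the log2 fold change of Cdc20 lay between -0.95 and -0.66. In the G2/M genes the first normal diet library stood further from the second, with a median log2 ratio of 0.61, against 0.34 in the replication genes. Their summed level was 6972 and 4552 CPM with the normal diet and 4055 and 4405 CPM with the high-fat diet, so that the mean of the high-fat diet libraries differed from the second normal diet library by -7.08%, against -18.1% for the replication genes. Gene by gene the same log2 ratio had a median of -0.22 in the G2/M genes and -0.25 in the replication genes, so the lists lay closer than their sums, to which abundant genes such as Mki67 add most. For the proliferation marker Mki67 the second normal diet library lay within the high-fat diet values, at 1210 CPM against 1207 and 1357 CPM. Top2a and Kif20a each had a log2 fold change of -0.61, with edgeR adjusted p of 0.0948 and 0.122. The difference between the 2 gene lists was not tested.

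Marker levels of other cell states also differed between these libraries. The 8 markers of suprabasal keratinocytes, which have stopped dividing, summed to 1093 and 2736 CPM with the normal diet and 3614 and 4493 CPM with the high-fat diet, so that the first normal diet library, highest for the replication genes, was lowest for these. Of the 8, Krt10, Krtdap and Krt2 rose and Flg fell (edgeR adjusted p between 0.0275 and 0.0413). The 11 markers of hair germ and matrix summed to 262 and 293 CPM against 269 and 274 CPM, within the range of the normal diet libraries. Padi3 had 0 counts in all libraries, and Shh had 2 counts and Krt35 had 4 counts, each in a single library. Other genes of this list were present, with 1 to 38 counts per library for Krt27, 10 to 19 for Krt71, 28 to 78 for Lef1, 47 to 128 for Msx2 and 194 to 282 for Hoxc13. Cdh3 had the most, 1810 to 2219 counts. It made up most of the sum, at 215 and 226 CPM against 222 and 216 CPM, so the sum says little about the other genes. Of the 8 tested 0 were called by edgeR, against 1.35% of all genes tested. An unadjusted p under 0.05 was reached by 0 of them, against 6.03% lower and 7.24% higher of all genes tested. The 12 bulge markers, which include Krt5 and Krt14, summed to 15710 and 18403 CPM against 22435 and 20108 CPM. The list went both ways, with 6 of 12 log2 fold changes negative and a median of -0.016. Krt15, Krt5, Krt14 and Itga6 were higher without overlap, against 22.7% of all genes tested. Cd34, Lgr5, Sox9, Lhx2, Nfatc1 and Tcf7l2 were lower without overlap, against 21.9%. The nearest libraries of the diets were at 152 and 150 CPM for Tcf7l2 and at 225 and 217 CPM for Lgr5. Of the 12, Krt14 alone passed (log2 fold change 0.70, edgeR adjusted p = 0.0332), against 1.35% of all genes tested. The part of these markers in the difference between the diets was not tested. In bulk libraries fewer cells in S phase and less of these transcripts per cell cannot be told apart.

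**Figure D5:**
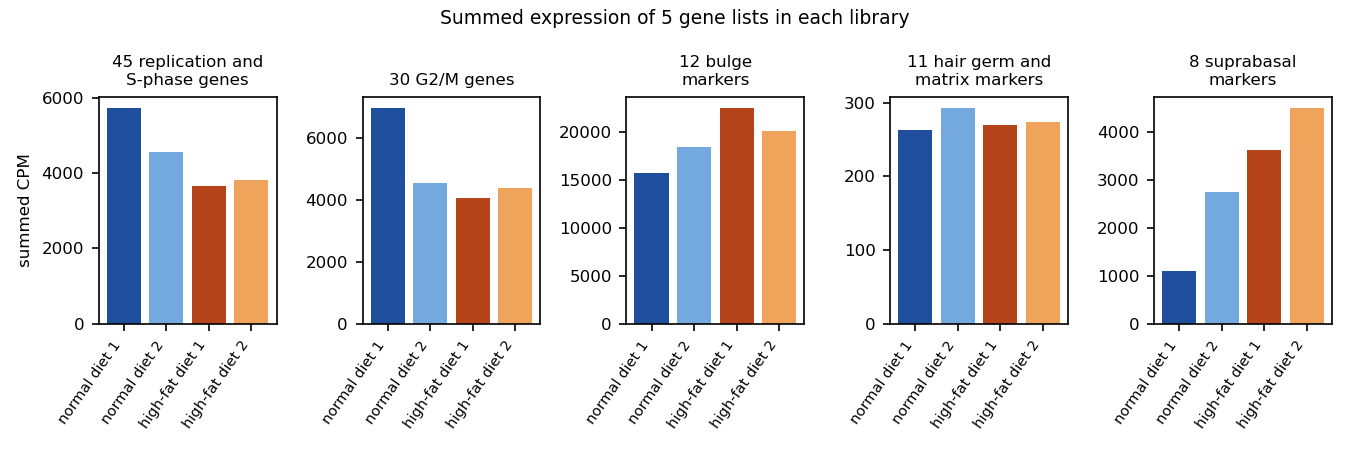
Summed CPM of 5 gene lists in each of the 4 libraries (bars, linear axes from 0, a separate scale per list). The replication and G2/M genes are highest in the first normal diet library, at 5718 and 6972 CPM, where the suprabasal markers are lowest, at 1093 CPM.

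Expression differences were last set beside the promoter windows. The 17 genes with an E2F form had a median log2 fold change of -0.44, and the 20 genes with a window but no form had one of -0.53. Mcm5 and Pold1 were among the former and Dut, Ccne1 and Chaf1b among the latter. Dut and E2f1 count as without a form, but their windows began inside the gene, so the bases before it were not searched. Of the genes with a window for which the diets overlapped, Cdc6, Orc1, Gins3 and E2f2 held a form and Orc6 and Mcm10 did not. These medians are a description of 37 genes in the same 4 libraries.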

How the data were processed

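One table, deposited by the authors, gives each gene's raw count and its FPKM in every library. The deposited counts were whole numbers, and all 221604 deposited FPKM values equalled count per exonic length and column total within 0.005. HISAT2 2.0.1, cutadapt 1.9.1 and bcl2fastq 2.17.1.14 are listed, with no roles, by the submitters' processing notes. Not given in the sources used here are the counter, its strand setting, the annotation and the build. All 45 genes have the positions of the GENCODE vM21 annotation of GRCm38. Of them 16 overlap another gene with at least 10 counts, 14 on the opposite strand, and reads of such pairs cannot be told apart if strand was ignored. Exonic lengths are those of the deposited table.

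Counts were tested in R 4.3.3 with edgeR 4.0.16 (quasi-likelihood test, TMM, filterByExpr by diet, minimum 10 counts, scaled to CPM, in 2 libraries and 15 overall), with Benjamini-Hochberg adjustment over 14479 genes and a threshold of 0.05. The standard error is the log2 fold change divided by the root of F. Libraries of 1 diet differed beyond sampling noise, with chi-square per degree of freedom of 14.6 (normal diet) and 6.77 (high-fat diet). EdgeR's common biological coefficient of variation came to 20.3%. On simulated counts of these 14479 genes with 200 changed, 128 genes were called, 8 of them unchanged. The share recovered was 55% at 2-fold and 65% at 4-fold. Alternatives were other scalings, filters, DESeq2 1.42.0, limma 3.58.1 on counts (voom) or on log2(FPKM + 1) and log2(FPKM + 0.1), leaving out each library (a lone library being taken to vary as the other diet does) and a replicate block. Scaling to equal sums of TPM was chosen after seeing the data. The genes and lists were chosen with earlier results of these data known. Values in every library are given for called genes, the 3 genes with the smallest p of each role and the 3 with the highest FPKM, and for Gins3, E2f2 and Pole, which were added after their values were seen. Of the other pathway lists the called genes and the 3 with the smallest p are named, with Mki67 and Top2a for G2/M. One gene that this rule names is not reported here. The other ORC subunits and the marker genes beyond those at 0 were named after their values were seen. The limit of 3 counts covers counting error only.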

Additional observations from a re-analysis of the deposited data

How the results depend on the processing

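The median log2 fold change of the 45 genes stayed negative in all 17 alternatives, from -0.56 when the second normal diet library was left out to -0.25 when the first was, and between 41 and 45 genes were negative. Relative to the median of all genes it lay between -0.57 and -0.27. The number of genes called lower among the 45 was 12 without a filter on low counts, 6 with DESeq2 and 5 with the replicate block. It was 0 with limma on log2(FPKM + 1) and on log2(FPKM + 0.1), and 0 with equal sums of TPM. Over all genes, the counts lower and higher were 225 and 408 without the filter, of 24790 genes tested. Of 14479 genes tested they were 119 and 275 with DESeq2 and 111 and 308 with the replicate block. With equal sums of TPM they were 3 and 88, and with limma on either pseudocount 0 and 2. The count lower was 65 with total counts only. It was 70 of 12653 genes with at least 10 counts in every library and 55 of 13026 with a mean FPKM of at least 1. With a library left out, it lay between 0 and 2 lower and between 0 and 81 higher genes. The cause of these differences was not tested.

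Signs turned for few genes, none of them called. Gins3 was -0.043 with total counts only, -0.033 and -0.041 with limma on log2(FPKM + 1) and log2(FPKM + 0.1), and -0.040 with equal sums of TPM. With libraries left out Gins3 ranged from -0.12 to 0.20, E2f2 from -0.055 to 0.71, Orc1 from -0.29 to 0.24, Orc6 from -0.44 to 0.068, Cdc6 from -0.54 to 0.16 and Mki67 from -0.60 to 0.086. Replicate numbers in the sample titles are shared by the diets, but nothing says that they pair libraries. The deposited columns are named ND1, ND2, HFD7 and HFD8, without shared numbers. The deviations of same-numbered libraries from their diet's mean correlated at -0.0127 across genes, so the numbers were not used as pairs. With the replicate block Mcm5, Ccna2 and Chaf1b were called beside Pold1 and Dut. With 2 E2F forms in place of 4 the share of windows was 31.1% in place of 37.8%.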

Other observations

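Ratios of transcripts that serve the same step were compared per kilobase, a comparison chosen after seeing the data and given without a test. The FPKM ratio of Ccne2 to Ccne1, the genes of the 2 E-type cyclins, was 1.37 and 1.48 under the normal diet against 1.81 and 2.18, without overlap. The ratio of Rrm2 to Rrm1, the subunits of ribonucleotide reductase, was 1.60 and 1.96 against 2.01 and 1.80 and overlapped. The ratio of Gmnn to Cdt1, inhibitor to target in licensing, was 1.29 and 1.141 against 1.25 and 1.039 and overlapped. Among the subunits of CAF-1, Chaf1a and Chaf1b together stood at 29.5 and 23.3 FPKM with the normal diet and 14.6 and 16.6 FPKM with the high-fat diet.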
